A study of Mus musculus with 6 samples.

Results

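The 10 genes described here belong to the NRF2 antioxidant response. They were chosen by name: the transcription factor gene Nfe2l2, its inhibitor Keap1, and the target genes Nqo1, Hmox1, Gclc, Gclm, Slc7a11, Txnrd1, Srxn1 and G6pdx. All 10 were listed among the 41388 genes of the deposited table and all 10 passed the filter on low values, which left 12693 tested genes. They were measured by RNA-seq in 6 libraries of primary hepatocytes of C57BL/6J mice, the parenchymal cells of the liver freed by collagenase and kept in growth medium overnight. Of these, 3 had received adenovirus encoding β-galactosidase (β-gal, replicates 1, 2 and 3) and 3 adenovirus encoding the lipoxygenase ALOXE3 (Aloxe3, replicates 7, 8 and 9), at about 1000000 viral particles per 1000000 cells, and RNA was taken 24 h later. Both groups therefore carry an adenovirus, and cells without virus are not part of the comparison. No label ties a library to an animal or to a separate preparation of cells, so p-values measure the spread between these libraries, which may be technical. The comparison asks whether transcripts of the antioxidant response differ in hepatocytes made to express a lipoxygenase, an enzyme family that acts on polyunsaturated fatty acids and their hydroperoxides.

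NRF2, the product of Nfe2l2, is a transcription factor held at a low level by KEAP1, which hands it to a CUL3 ubiquitin ligase for degradation. Electrophiles and oxidants modify cysteines of KEAP1, NRF2 then escapes degradation, pairs with a small MAF protein and binds antioxidant response elements near genes for glutathione synthesis, the thioredoxin system, NADPH supply and detoxification. In liver the pathway is known for protection against reactive drug metabolites. As most control of NRF2 acts on the protein, the transcript of Nfe2l2 says little about the amount of NRF2, and the target transcripts are the usual readout.

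The core of the antioxidant response element, written TGACNNNGC, was searched on both strands of the RefSeq promoter windows (GRCm38.p6, 250 bases before to 50 bases after a transcript start). Windows were available for 8 of the 10 genes, 10 windows in all because Txnrd1 has 3, and none for Hmox1 and Gclc. The 9 letters were found in 1 window each of 5 genes, and in 12.4% of all 32851 windows. The stretches below are shown because they place the match relative to the start of each gene. They read 5′ to 3′ on the strand of the gene, with up to 30 bases on each side, and capitals mark the match.
Nfe2l2, chr2:75704865-75704913: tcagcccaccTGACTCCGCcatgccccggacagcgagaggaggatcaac
Gclm, chr3:122245393-122245461: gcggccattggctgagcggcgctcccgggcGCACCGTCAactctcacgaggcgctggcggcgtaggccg
Txnrd1, chr10:82859084-82859152: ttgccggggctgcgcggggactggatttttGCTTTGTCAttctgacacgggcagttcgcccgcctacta
Srxn1, chr2:152105522-152105573: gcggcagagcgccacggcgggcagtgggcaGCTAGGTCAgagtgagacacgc
G6pdx, chrX:74428899-74428967: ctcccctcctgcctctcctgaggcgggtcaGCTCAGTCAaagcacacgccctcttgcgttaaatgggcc
The match in Nfe2l2 is in the forward direction and begins at position -240, counted from the transcript start with its first base as position 1. The other 4 are on the reverse strand, so that the capitals are the reverse complement of the core. They begin at position -134 in Gclm, -92 in Txnrd1 (the second of its windows), -57 in G6pdx and 29 in Srxn1. The letters TGACTCA, the element of AP-1 factors, which resembles this core, occurred at 2 places in the Srxn1 window, neither overlapping its match, in no other window of these genes, and in 5.20% of all windows. The windows of Keap1, Nqo1 and Slc7a11 hold no match, which says only that these letters are not within them.

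Library size, derived from the whole-number steps of the values, ran from 29575553 to 32431318 reads with β-gal and from 25521908 to 30399198 with Aloxe3. The targeted gene itself stood at 1.74 to 2.06 RPKM (reads scaled to gene length and library size) with β-gal and at 42.3 to 56.3 RPKM with Aloxe3, counting reads assigned to the mouse gene. The labels write ALOXE3 without naming the species of the transgene, so these values need not measure all of its transcript. Replicates of a group differed by more than sampling noise in every pair (chi-square over degrees of freedom 3.86 to 11.3). Aloxe3 replicate 9 stood apart. The summed level of the mitochondrially encoded genes was 29543 RPKM in it, against 23567 and 23365 RPKM in the other Aloxe3 libraries and 21783 to 22637 RPKM with β-gal, so this sum was higher in every Aloxe3 library (14.9% between means). Alb, the albumin gene, was at 4362 to 4552 RPKM in all libraries, and other hepatocyte genes ranged widely. With β-gal the means were 243 RPKM for Apoa1, 52.2 for Serpina1a, 26.9 for Hnf4a and 4.56 for Fabp1. They were 2.17 RPKM for Cyp2e1, 0.985 for Cps1 and 0.278 for Tat. Cps1 and Cyp2e1 were at 2.86 RPKM or less in every library.

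None of the 10 genes was past the threshold in the fit over all genes (limma on log2(RPKM + 1), adjusted p under 0.05), which called 0.394% of all tested genes. At an unadjusted p under 0.05 there were 4 of 10, 3 of them higher and 1 lower with Aloxe3, against 12.7% of all tested genes. Gclc and Nfe2l2 had the lowest p, and in both every Aloxe3 library lay above every β-gal library, a pattern found in 11.2% of tested genes. In G6pdx every Aloxe3 library lay below every β-gal library, as in 8.71% of tested genes. With 3 libraries against 3 the exact permutation test cannot give a two-sided p below 0.1, and these 3 genes reached that value. Tested instead as reads with voom in limma, which called 1.32% of genes, Gclc and Nfe2l2 were past the threshold and the other 8 were not. The median log2 fold change of the 10 genes was 0.0422, against 0.00492 for all tested genes. With β-gal replicate 1 left out it was -0.0234, and with Aloxe3 replicate 7 left out -0.0275, so the sign of the median rests on single libraries. Without Aloxe3 replicate 9, which stood apart, the log2 fold change was 0.49 for Gclc, 0.18 for Nfe2l2 and -0.12 for G6pdx, and none was past the threshold with limma. The mitochondrial sum given above separated the same groups of libraries, and its part in the differences of these 3 genes was not tested.

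**Figure D1:**
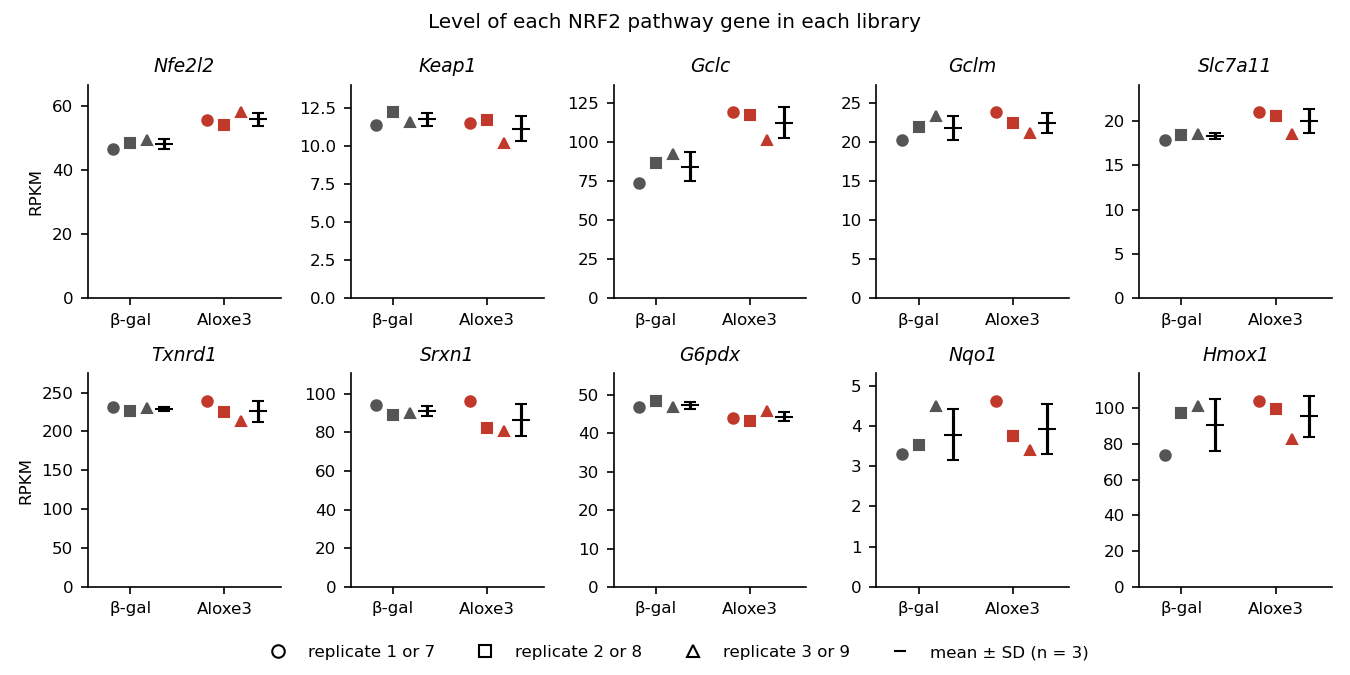
RPKM of each gene (vertical axes from 0) in the 3 β-gal and 3 Aloxe3 libraries, 1 point per library with the mean ± SD beside it. The groups are apart in Nfe2l2, Gclc and G6pdx and overlap in the other 7 genes, and replicate 9 (red triangle) is the lowest Aloxe3 library in 8 of 10.

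The regulators were considered first. Nfe2l2 (ENSMUSG00000015839, chr2:75675513-75704641, reverse strand), the gene of NRF2, was at 46.4, 48.4 and 49.4 RPKM with β-gal and at 55.6, 53.9 and 57.9 RPKM with Aloxe3. All 3 Aloxe3 libraries were above the highest β-gal library, and replicate 9, low for most of the genes, was the highest here. The means were 48.1 ± 1.52 and 55.8 ± 2.02 RPKM (SD, n = 3 each), a difference of 16.0%. The log2 fold change on the log2(RPKM + 1) scale was 0.21 (SE 0.041, 95% interval 0.11 to 0.31, adjusted p = 0.119 from limma). With voom on reads it was 0.21 with an adjusted p of 0.0213, and over all alternatives the adjusted p of Nfe2l2 ran from 0.0213 to 0.398.

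Keap1 (ENSMUSG00000003308, chr9:21229730-21239361, reverse strand) encodes the sensor that marks NRF2 for degradation. It was at 11.4, 12.2 and 11.6 RPKM with β-gal and at 11.5, 11.7 and 10.2 RPKM with Aloxe3, so the groups overlapped and only replicate 9 was below the β-gal range. Its log2 fold change was -0.07 (SE 0.056, 95% interval -0.20 to 0.06, adjusted p = 0.652 from limma). Its exons overlap those of Gm16754 on the opposite strand, and whether the counting used strand is not given in the sources used here.

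Set against each other per length, Keap1 transcripts stood at 0.245, 0.252 and 0.235 of those of Nfe2l2 in the β-gal libraries. In the Aloxe3 libraries this ratio was 0.208, 0.217 and 0.177. The groups did not overlap, and the mean ratio was 0.244 ± 0.00874 with β-gal and 0.201 ± 0.0213 with Aloxe3 (SD, n = 3 each, two-sided exact permutation p = 0.1, the smallest possible). The Aloxe3 mean was 0.822 times the β-gal mean, and between 0.788 and 0.871 times with 1 library left out. Nfe2l2 was apart between groups on its own and Keap1 was not, so the ratio largely repeats the Nfe2l2 difference. Ratios of other gene pairs were not computed, so no share over such pairs stands beside it.

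The genes of glutathione supply came next. Gclc (ENSMUSG00000032350, chr9:77754535-77794485, forward strand) encodes the catalytic subunit of glutamate-cysteine ligase, the rate-limiting enzyme of glutathione synthesis. It was at 73.9, 86.6 and 92.3 RPKM with β-gal and at 119, 117 and 101 RPKM with Aloxe3. The lowest Aloxe3 library was above the highest β-gal library, although the β-gal libraries themselves spread widely. The means were 84.3 ± 9.45 and 112 ± 9.79 RPKM (SD, n = 3 each), a difference of 33.4%, the largest among the 10 genes. The log2 fold change was 0.41 (SE 0.092, 95% interval 0.20 to 0.63, adjusted p = 0.161 from limma). With voom on reads it was 0.42 with an adjusted p of 0.00643, and over all alternatives the adjusted p of Gclc ran from 0.00643 to 0.408. Gclc took 8158 to 12133 reads per library, and the SD of its log2 values within a group was higher than that of 90.2% of tested genes.

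Gclm (ENSMUSG00000028124, chr3:122245557-122270732, forward strand) encodes the modifier subunit, which raises the efficiency of the same ligase. It was at 20.2, 21.9 and 23.3 RPKM with β-gal and at 23.8, 22.4 and 21.2 RPKM with Aloxe3. The groups covered nearly the same range, and the log2 fold change was 0.04 (SE 0.062, 95% interval -0.10 to 0.19, adjusted p = 0.815 from limma). Without β-gal replicate 1 it was -0.009. Its exons overlap those of Gm17494 on the opposite strand and Gm6061 on the same strand.

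The levels of both subunits were then set against each other within each library. Gclm stood at 0.274, 0.253 and 0.253 of Gclc in the β-gal libraries and at 0.199, 0.192 and 0.209 in the Aloxe3 libraries. The mean ratio was 0.260 ± 0.0123 with β-gal and 0.200 ± 0.00858 with Aloxe3 (SD, n = 3 each, two-sided exact permutation p = 0.1, the smallest possible). The gap between the groups was larger than the spread within either. Gclc was apart between groups on its own and Gclm was not, so the ratio largely repeats the Gclc difference. The Aloxe3 mean was 0.771 times the β-gal mean, and between 0.754 and 0.793 times with 1 library left out. As the groups did not overlap, leaving out a library could not bring this quotient to 1.

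**Figure D2:**
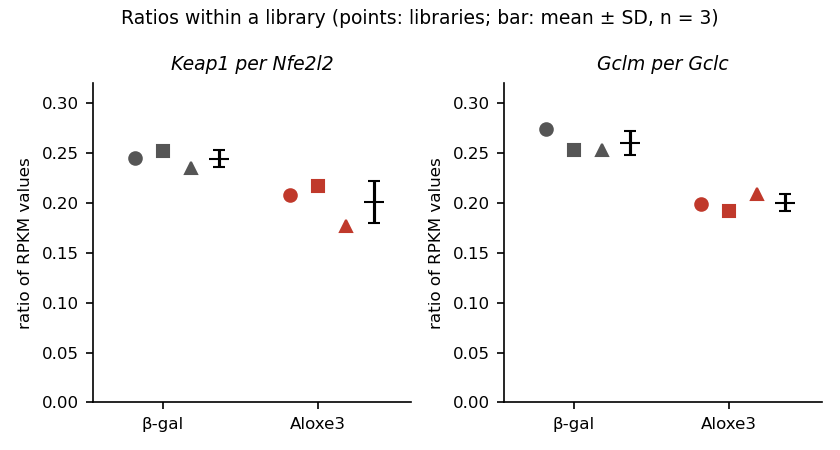
Ratio of RPKM values within each library (vertical axes from 0), Keap1 per Nfe2l2 on the left and Gclm per Gclc on the right, 1 point per library with the mean ± SD. In both panels the 3 Aloxe3 libraries sit below the 3 β-gal libraries, at most 0.217 against at least 0.235 on the left, and at most 0.209 against at least 0.253 on the right.

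Slc7a11 (ENSMUSG00000027737, chr3:49892526-50443614, reverse strand) encodes the light chain of the cystine and glutamate exchanger, which brings in cystine for glutathione synthesis, and it is also a target of ATF4. It was at 17.9, 18.4 and 18.6 RPKM with β-gal and at 21.0, 20.6 and 18.5 RPKM with Aloxe3. Replicates 7 and 8 were above all β-gal libraries and replicate 9 was among them. The log2 fold change was 0.12 (SE 0.052, 95% interval 0.00 to 0.24, adjusted p = 0.392 from limma), and 0.18 without replicate 9 (adjusted p = 0.178, and from 0.178 to 0.666 over all alternatives, limma).

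The genes of the thioredoxin system and of NADPH supply followed. Txnrd1 (ENSMUSG00000020250, chr10:82833951-82897712, forward strand), the cytosolic thioredoxin reductase, was the most abundant of the 10 genes. It was at 231, 226 and 230.3 RPKM with β-gal and at 239, 225 and 213 RPKM with Aloxe3. The Aloxe3 libraries lay on both sides of the β-gal libraries, and the log2 fold change was -0.02 (SE 0.047, 95% interval -0.13 to 0.09, adjusted p = 0.872 from limma). As a fold its interval ran from 0.91 to 1.06, with 19220 to 25436 reads per library, and the sign turned without Aloxe3 replicate 9 and with quantile normalization (0.02 each).

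Srxn1 (ENSMUSG00000032802, chr2:152105516-152111376, forward strand) encodes sulfiredoxin, which repairs overoxidised peroxiredoxins. It was at 94.1, 88.8 and 90.1 RPKM with β-gal and at 96.2, 82.4 and 80.7 RPKM with Aloxe3. Replicate 7 was the highest of all libraries and replicates 8 and 9 the lowest, and the log2 fold change was -0.08 (SE 0.067, 95% interval -0.23 to 0.08, adjusted p = 0.667 from limma).

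G6pdx (ENSMUSG00000031400, chrX:74409483-74429194, reverse strand) encodes glucose-6-phosphate dehydrogenase, the entry enzyme of the pentose phosphate pathway and a main source of NADPH. It was at 46.8, 48.4 and 46.9 RPKM with β-gal and at 44.0, 43.3 and 45.7 RPKM with Aloxe3. The groups were apart, with a difference of -6.42% between means of 47.4 ± 0.855 and 44.3 ± 1.24 RPKM (SD, n = 3 each). The log2 fold change was -0.09 (SE 0.036, 95% interval -0.18 to -0.01, adjusted p = 0.343 from limma). It was the steadiest of the 10, its SD within a group being higher than that of only 9.67% of tested genes. Its exons overlap those of Ikbkg on the opposite strand, and it has a near-identical copy, G6pd2, listed at 0.0877 RPKM or less, so its level is uncertain as far as reads fit both genes.

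The classical markers of the response, Nqo1 and Hmox1, were the most variable. Nqo1 (ENSMUSG00000003849, chr8:107388225-107403206, reverse strand) encodes a quinone reductase. It was at 3.31, 3.53 and 4.51 RPKM with β-gal and at 4.62, 3.75 and 3.41 RPKM with Aloxe3. The groups overlapped almost wholly, and the log2 fold change was 0.04 (SE 0.12, 95% interval -0.23 to 0.31, adjusted p = 0.908 from limma). It was the scarcest of the 10, with 140 to 207 reads per library, and as a fold its interval ran from 0.86 to 1.24. The sign turned without β-gal replicate 1 (-0.03), as it did without Aloxe3 replicate 7 (-0.06).

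Hmox1 (ENSMUSG00000005413, chr8:75093621-75100589, forward strand) encodes heme oxygenase-1, which degrades heme. It was at 74.1, 97.1 and 101 RPKM with β-gal and at 104, 99.7 and 82.6 RPKM with Aloxe3. β-gal replicate 1 was the lowest and Aloxe3 replicate 9 the next lowest, and the log2 fold change was 0.07 (SE 0.13, 95% interval -0.22 to 0.37, adjusted p = 0.846 from limma). Without β-gal replicate 1 it was -0.06. The SD within a group was higher than that of 95.1% of tested genes for Hmox1 and 93.8% for Nqo1. Hmox1 took 4716 to 6807 reads per library, and the part of depth in its spread was not tested.

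**Figure D3:**
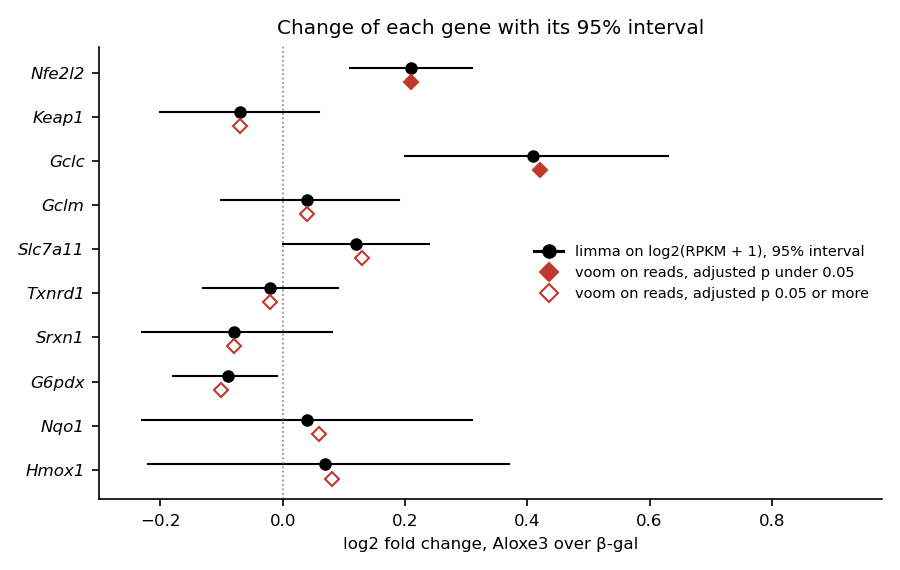
Log2 fold change of Aloxe3 over β-gal (horizontal axis) for each gene, from limma on log2(RPKM + 1) with its 95% interval (black) and from voom on reads (red, filled where the adjusted p was under 0.05). Only the intervals of Nfe2l2 and Gclc lie clear above 0, from 0.11 and 0.20 upward, and that of G6pdx ends at -0.01.

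By level in the β-gal libraries the order was Txnrd1 (229 RPKM), Srxn1 (91.0), Hmox1 (90.9), Gclc (84.3), Nfe2l2 (48.1), G6pdx (47.4), Gclm (21.8), Slc7a11 (18.3), Keap1 (11.7) and Nqo1 (3.78 RPKM). The neighbours Srxn1 and Hmox1, Hmox1 and Gclc, and Nfe2l2 and G6pdx overlapped between libraries, and the other neighbours did not. In the Aloxe3 libraries Gclc (112 RPKM) stood second, though its lowest library lay below the highest of Hmox1, and Nfe2l2 and G6pdx no longer overlapped. Compared with all tested genes, Txnrd1 was higher than 98.8% and Nqo1 higher than 36.1%.

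Within a group the same libraries were often lowest or highest across these genes. Replicate 9 was the lowest Aloxe3 library for 8 of the 10 genes, all but Nfe2l2 and G6pdx, and for 46.8% of all tested genes. Replicate 7 was the highest for 7 of 10, against 35.6% of tested genes. Among the β-gal libraries replicate 1 was the lowest for 8 of 10, all but Txnrd1 and Srxn1, against 41.4%. The summed level of the 8 target genes was 561, 591 and 607 RPKM with β-gal and 652, 614 and 566 RPKM with Aloxe3, so the groups overlapped and the spread within a group exceeded the difference of 4.11% between them. Replicate 9 also had the highest mitochondrial sum, which was higher in all 3 Aloxe3 libraries than with β-gal, and the part of that in these values was not tested.

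A wider list of 64 genes, written with earlier results of these data known, gave the surroundings. It held regulators and targets of NRF2 beside genes of the same pathways and families. Sod1, Sod2 and Cat in it are not strictly NRF2 genes. Of the 64 genes 59 were tested, and 0 were past the threshold with limma and 0 with voom. With limma 8 had an unadjusted p under 0.05 (4 higher, 4 lower, against 12.7% of all tested genes). The median log2 fold change was -0.0148. Groups did not overlap in 4 of the 59 on the higher side (11.2% of all tested genes) and 10 on the lower side (8.71% of all tested genes).

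Among the 10 regulators, 6 had a negative and 4 a positive log2 fold change. Rbx1, the RING subunit of the CUL3 ligase, was at 17.6 ± 0.753 RPKM in the control group and 19.8 ± 0.607 RPKM in the other (SD, n = 3 each, log2 fold change 0.16, adjusted p = 0.249 from limma). Sqstm1, which encodes p62, an autophagy receptor that binds KEAP1 and is itself an NRF2 target, was the most abundant of them at 910.3 ± 23.7 and 859.7 ± 47.6 RPKM (SD, n = 3 each, adjusted p = 0.537 from limma). Groups did not overlap for Rbx1 on the higher side (11.2% of all tested genes) and for Mafk and Nfe2l1 on the lower side (8.71%). Mafk, a small MAF partner of NRF2, was at 23.0 ± 0.899 and 20.9 ± 0.193 RPKM (SD, n = 3 each, log2 fold change -0.13, adjusted p = 0.280 from limma). Nfe2l1, which encodes the related factor NRF1, was at 69.6 ± 0.937 and 66.2 ± 2.14 RPKM (SD, n = 3 each, log2 fold change -0.07, adjusted p = 0.458 from limma). None of the 10 regulators was past the threshold.

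Of the glutathione enzymes 7 of 8 were tested, and 5 had a negative log2 fold change. The most abundant was Gpx1, a glutathione peroxidase, at 583 ± 5.13 and 602 ± 4.04 RPKM (SD, n = 3 each, log2 fold change 0.05, adjusted p = 0.602 from limma), and the lowest adjusted p was that of Glrx, glutaredoxin (log2 fold change -0.10, adjusted p = 0.410). Groups did not overlap for Gpx1 on the higher side and for Gpx4, which reduces lipid hydroperoxides, on the lower side (51.3 ± 0.113 and 49.2 ± 1.87 RPKM, SD, n = 3 each, log2 fold change -0.06, adjusted p = 0.534 from limma). The glutathione S-transferases, which conjugate electrophiles to glutathione, had 7 positive log2 fold changes among 9 tested genes (6647 of all 12693) and a median of 0.0787. Gsta3 was at 4.95, 5.69 and 6.52 RPKM with β-gal and at 7.73, 8.01 and 6.56 RPKM with Aloxe3, which left the groups just apart (log2 fold change 0.33, SE 0.097, adjusted p = 0.269 from limma and 0.0535 with voom). Gsta4, which overlapped, had a log2 fold change of 0.29 (adjusted p = 0.313 from limma). Gstm2 was lower in every Aloxe3 library, at 5.03 ± 0.274 and 4.33 ± 0.357 RPKM (SD, n = 3 each, log2 fold change -0.18, adjusted p = 0.313 from limma). Gstm1, the most abundant, had a log2 fold change of 0.08 (adjusted p = 0.497). The genes of this family resemble each other, and reads that fit several of them were not counted.

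All 7 tested of the 8 thioredoxin enzymes had a negative log2 fold change, against 6046 of all 12693 tested genes. These 7 genes ran from -0.12 to -0.03, with a median of -0.0812. In 4 of them every Aloxe3 library lay below every β-gal library, against 8.71% of all tested genes, and with limma 2 had an unadjusted p under 0.05 (against 12.7% of all tested genes) and 0 were past the threshold (0 with voom). Txn2, mitochondrial thioredoxin, was at 81.1 ± 2.37 and 74.5 ± 0.515 RPKM (SD, n = 3 each, log2 fold change -0.12, adjusted p = 0.262 from limma), and Txn1, the cytosolic form, at 558 ± 4.91 and 516 ± 34.8 RPKM (SD, n = 3 each, adjusted p = 0.421 from limma), with replicate 9 the lowest at 476 RPKM. The other 2 that did not overlap were the peroxiredoxins Prdx5 (log2 fold change -0.09, adjusted p = 0.336 from limma) and Prdx3 (-0.08, adjusted p = 0.419). Prdx1 (-0.03) was at 214, 212 and 213 RPKM with β-gal and at 227, 227 and 178 RPKM with Aloxe3. Replicates 7 and 8 lay above every β-gal library of it, and only replicate 9 lay below. Of the NADPH enzymes 5 of 6 were negative, Taldo1, transaldolase, with both the lowest p and the highest level (167 ± 2.40 and 157 ± 10.9 RPKM, SD, n = 3 each, adjusted p = 0.494 from limma). Groups did not overlap for Tkt, transketolase, alone (log2 fold change -0.04, adjusted p = 0.590).

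Of the detoxification enzymes and export pumps 10 of 11 tested genes were positive, with a median of 0.0566, against 6647 of all 12693 tested genes. With limma 1 of the 11 had an unadjusted p under 0.05 (against 12.7% of all tested genes). Groups did not overlap in 1, on the higher side (11.2% of all tested genes). Aox1, aldehyde oxidase, had the lowest p (log2 fold change 0.16, adjusted p = 0.376 from limma). Osgin1, an oxidative stress gene, was the most abundant and was at 887, 851 and 862 RPKM in β-gal and 892, 917 and 949 RPKM in Aloxe3 libraries (adjusted p = 0.449 from limma), so its groups were apart by a narrow margin. The 6 genes of heme and iron had a median of -0.0266, with Fth1, ferritin heavy chain, at 4938 ± 29.7 and 4879 ± 163 RPKM (SD, n = 3 each, adjusted p = 0.912 from limma) and Blvra, biliverdin reductase A, with the lowest p (log2 fold change -0.10, adjusted p = 0.561). Of the genes that remove superoxide and hydrogen peroxide, Sod1 was the most abundant, had the lowest p and was lower in every Aloxe3 library (log2 fold change -0.09, adjusted p = 0.451 from limma).

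**Figure D4:**
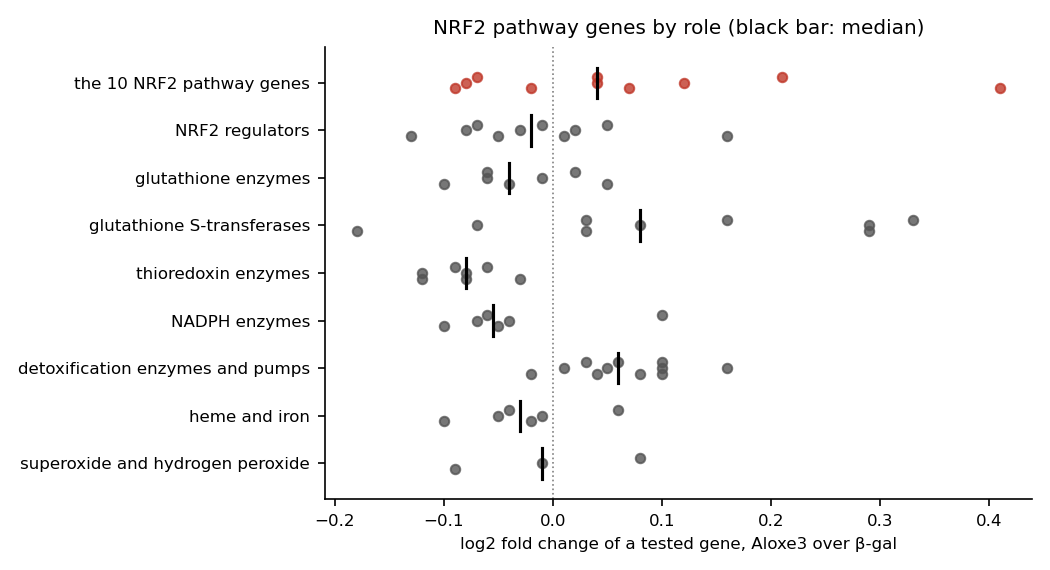
Log2 fold change of Aloxe3 over β-gal (horizontal axis) of each tested gene, by role, with the 10 genes in red, the wider list in grey and the median of each role as a black bar. The thioredoxin enzymes all lie below 0, from -0.12 to -0.03 (Prdx1, below the β-gal range in replicate 9 alone). Of the 11 detoxification genes 10 lie above 0, and no grey point was past the threshold.

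Factors that share targets with NRF2 were read in the same fit. Of 7 genes of the ATF4 response, which also controls Slc7a11, 0 were past the threshold and 0 had an unadjusted p under 0.05 (limma), and 0 were past it with voom. The median was 0.0627. Atf4 itself was at 199.6 ± 10.5 and 213 ± 17.1 RPKM (SD, n = 3 each), and Sesn2, with the lowest p of the list, had a log2 fold change of 0.06 (adjusted p = 0.572 from limma). Of 6 genes of the aryl hydrocarbon receptor, which also controls Nqo1, 3 were tested and 0 were past the threshold with limma or voom (0 at an unadjusted p under 0.05), with Tiparp the most abundant and of lowest p (log2 fold change 0.10, adjusted p = 0.481 from limma).

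As Hmox1 is also expressed in macrophages, markers of such cells and of other liver cells were read beside it. The 9 Kupffer cell markers summed to 160.0 to 166 RPKM in β-gal and 141 to 155 RPKM in Aloxe3 libraries, nearly all of it from Cd68 (148 ± 1.20 and 133 ± 7.21 RPKM, SD, n = 3 each, adjusted p = 0.262 from limma). Without Cd68 and Lyz2 the sum of the other 7 was 5.58 to 8.22 RPKM in β-gal and 4.92 to 6.59 RPKM in Aloxe3 libraries, and the defining marker Clec4f was at 0.0951 RPKM or less. The summed levels of endothelial (24.6 to 28.7 and 24.5 to 28.6 RPKM, with β-gal and Aloxe3), stellate (4.81 to 5.27 and 4.60 to 4.98 RPKM) and cholangiocyte markers (78.2 to 93.6 and 74.7 to 93.0 RPKM) overlapped between groups, and the stellate marker Lrat was listed at 0 in all libraries. The cholangiocyte sum was nearly all from Krt19 (means 42.9 and 38.5 RPKM) and Sox9 (41.5 and 43.0 RPKM). Krt7, Epcam and Cftr were at 0.456 RPKM or less. Epcam, too low to be tested, was at 0.398 to 0.456 RPKM with β-gal and at 0.154 to 0.334 RPKM with Aloxe3. The 8 hepatocyte markers summed to 4830.3 to 4881 RPKM in β-gal and 4679.8 to 4825 RPKM in Aloxe3 libraries. The Kupffer sum with Cd68 was lower in every Aloxe3 library, as was the hepatocyte sum, which is mostly Alb (4524 ± 26.2 and 4445 ± 76.7 RPKM, SD, n = 3 each). The hepatocyte genes did not move one way. Of 7 tested, 0 were past the threshold with limma, 3 had an unadjusted p under 0.05 (1 higher, 2 lower, against 12.7% of all tested genes), and 1 was past the threshold with voom (against 1.32%). The gene past it with voom was Cps1, a urea cycle enzyme, at 0.915, 0.988 and 1.05 RPKM with β-gal and at 1.64, 1.29 and 1.56 RPKM with Aloxe3 (log2 fold change 0.33 with an adjusted p of 0.161 from limma, and 0.59 with an adjusted p of 0.0142 from voom). The 2 lower ones, whose groups also did not overlap, were Apoa1, an apolipoprotein, at 243 ± 2.85 and 227 ± 8.55 RPKM (SD, n = 3 each, log2 fold change -0.10, adjusted p = 0.349 from limma), and Serpina1a, a secreted protease inhibitor, at 52.2 ± 1.07 and 48.3 ± 0.306 RPKM (SD, n = 3 each, log2 fold change -0.11, adjusted p = 0.262 from limma). Tat, tyrosine aminotransferase, which was too low to be tested, was at 0.193 to 0.346 RPKM with β-gal and at 0.438 to 0.661 RPKM with Aloxe3. In bulk RNA, fewer cells of a type and less RNA per cell cannot be told apart. The part of these differences in the values of the 10 genes was not tested.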

How the data were processed

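Per the labels and the study's methods, poly-A RNA was sequenced as single reads of 50 bases, aligned to Ensembl release 76 (GRCm38.p2) with STAR 2.0.4b, and unique unambiguous reads per gene were counted with featureCounts 1.4.5. The authors deposited RPKM values, and how counts became RPKM is not given in the sources used here. They were used without further normalization. Symbols and coordinates came from GENCODE M21 (GRCm38), which matched 40254 of 41388 identifiers. Library size and reads per gene were derived from the steps of the values, with the M21 exon length where it gave whole reads (tolerance 0.05), otherwise the smallest length that did. The latter held for Keap1, Hmox1, Gclc, Gclm, Slc7a11 and Txnrd1, whose reads are therefore known up to a common factor. The RPKM of a single read per kilobase was 0.0308 to 0.0392.

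Genes whose mean over the 6 libraries reached 0.5 RPKM were tested as log2(RPKM + 1) in one model (limma 3.58.1, R 4.3.3, eBayes using the trend of variance with level), and p-values were adjusted by Benjamini-Hochberg over all 12693 tested genes (threshold 0.05). This scale understates the change of low genes. Non-overlap means that every library of one group lies beyond every library of the other. Alternatives were a pseudocount of 0.1, no filter, a filter at 5 RPKM, quantile normalization, libraries rescaled to a shared median, eBayes without trend, each library left out, and voom on derived reads. Each alternative was fitted over all genes it tested, and for single genes beyond the 10 only voom is reported. Tables were made with Python 3.11.15. Scripts were tested on simulated data. Named genes are the 10 members, Aloxe3 and, in each pathway list, the gene with the lowest adjusted p and the most abundant one. Overlapping genes, other marker genes and further list genes with non-overlapping groups or an unadjusted p under 0.05 were named after their values were seen. The members and lists were chosen with earlier results of these data known.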

Additional observations from a re-analysis of the deposited data

How the results depend on the processing

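The count of the 10 genes past the threshold was 2 with voom on derived reads (Gclc and Nfe2l2) and 0 under the other alternatives, of which the filter at 5 RPKM left Nqo1 untested. The count over all tested genes moved from 50 to 7 without a filter, to 168 with voom, and to 6 to 19 with a library left out. The number of the 10 genes whose groups did not overlap was 3 (against 11.2% of all tested genes on the higher and 8.71% on the lower side), 4 with quantile normalization, 5 after rescaling to the same median, and 3 to 5 with a library left out (5 without Aloxe3 replicate 7). The median log2 fold change of the 10 genes ran from -0.0275 to 0.112 with a library left out, and the Aloxe3 sum of the 8 target genes from 1.01 to 1.08 times the β-gal sum. Signs turned for Txnrd1 with quantile normalization (0.02) and without Aloxe3 replicate 9 (0.02), for Nqo1 without β-gal replicate 1 (-0.03) and Aloxe3 replicate 7 (-0.06), and for Hmox1 (-0.06) and Gclm (-0.009) without β-gal replicate 1. With a library left out the log2 fold change ran from -0.06 to 0.15 for Nqo1, -0.06 to 0.17 for Hmox1, -0.009 to 0.09 for Gclm and -0.07 to 0.02 for Txnrd1. None of these was past the threshold, and the cause was not tested. Nfe2l2, Gclc, Slc7a11, G6pdx, Keap1 and Srxn1 kept their sign in all alternatives run. With a library left out they ran from 0.18 to 0.23, 0.32 to 0.49, 0.09 to 0.18, -0.12 to -0.08, -0.10 to -0.01 (nearest 0 without Aloxe3 replicate 9) and -0.16 to -0.03 (lowest without Aloxe3 replicate 7, nearest 0 without replicate 9), in that order. As the groups did not overlap for Nfe2l2, Gclc and G6pdx, leaving out a library could not turn their sign. No paired analysis was possible because the groups share no replicate numbers. Nqo1, at 140 to 207 reads per library, is the gene most limited by depth.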
